A study of Mus musculus with 2 samples.

Results

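The cadherins and protocadherins examined here are the 34 genes, of 32285 in the files, whose symbol is Cdh or Pcdh followed by a number alone, 23 named Cdh and 11 named Pcdh. The rule for the members used their symbols, and the family was taken up with earlier results of these data known. They were measured by single-nucleus RNA sequencing of neuronal nuclei from the preoptic area (POA) of the mouse hypothalamus, in a study of ultrasound stimulation of this region and of the lowered body temperature and metabolism that follow it. The US+ group was treated with ultrasound and the US− group received a sham treatment. All mice were wild type C57BL/6NCrl animals of both sexes, 6 to 9 weeks old, and the tissue was taken 1 h after treatment. Each group was 1 library, made from the pooled POA of 4 mice and sorted for the neuronal nuclear protein NeuN, so that treatment and library cannot be told apart and no variation between mice was measured. After filtering, 11040 US− nuclei and 9912 US+ nuclei remained, with medians of 7664 and 7376 UMIs (unique molecular identifiers, each marking 1 captured RNA molecule), and 29 cell barcodes occurred in both libraries.

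Cadherins are cell surface proteins that hold neighbouring cells together in the presence of calcium. Classical cadherins bind mostly to their own kind or to close relatives on the facing cell and are coupled to the actin cytoskeleton by catenins. Type I members such as N-cadherin are broadly used in the brain, whereas the type II members are known for being used in different combinations by different nuclei and circuits. The non-clustered delta-protocadherins are a related family with their own cytoplasmic partners and take part in axon growth, cell sorting and synapse formation. The 34 genes held 5 type I cadherins, 13 type II cadherins, Cdh13 (T-cadherin, which is attached to the membrane by a GPI anchor), 4 other cadherins, 3 delta-1 protocadherins, 5 delta-2 protocadherins and 3 other protocadherins.

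The 8 neuron types were gates on marker genes, none of them a cadherin. A nucleus was placed in a type by UMIs of Rarb with Drd1 or Rarb with Drd2 (the dopamine receptors of the 2 classes of striatal projection neuron), Lhx6 with Sox6, Lhx8, Esr1 (oestrogen receptor alpha), the Onecut genes, Skor2 with Slc17a6 (the vesicular glutamate transporter) or Tcf7l2 with Slc17a6. Nuclei that met more than 1 gate were left out, 525 of US− and 397 of US+, and 6214 and 6529 nuclei met none. The US− library held 1068 Rarb/Drd1, 795 Rarb/Drd2, 605 Lhx6/Sox6, 565 Lhx8, 562 Esr1, 537 Onecut, 45 Skor2/Slc17a6 and 124 Tcf7l2/Slc17a6 nuclei. The US+ library held 317, 242, 381, 286, 857, 741, 39 and 123 in the same order. Markers outside the gates were checked in each library against the median of the other types, each taken as the mean of both libraries: 6 of 6 were more than 2-fold higher in both libraries in each striatal type (for example Tac1, Pdyn and Ebf1, and Adora2a, Penk and Gpr6), 5 of 6 in the Lhx6/Sox6 type, 5 of 6 in the Lhx8 type and 3 of 4 in the Tcf7l2/Slc17a6 type. In the Esr1 type Pgr, Greb1 and Calcr passed and Cyp19a1 and Gal did not. In the Onecut type 1 of 4 (Ddc) and in the Skor2/Slc17a6 type 1 of 3 (Tmem163) passed, so these groups are named by their gates alone.

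Levels are given as CPM, counts per 1000000, from the UMIs of a gene summed over the nuclei of a type in 1 library and scaled by all UMIs of that sum. CPM is not corrected for gene length, and each gene was therefore compared between types and never with another gene. In bulk sums of this kind, fewer expressing nuclei and less RNA per nucleus cannot be told apart. Differences between types are log2 differences from edgeR's quasi-likelihood test over all 15895 genes with at least 100 UMIs in the 16 sums (8 types in 2 libraries), with Benjamini-Hochberg adjusted p. A gene is called higher or lower here when the adjusted p was under 0.05 and the difference was at least 2-fold. Counts of members at an unadjusted p under 0.05 are also given. The share of all genes at that p was not counted. Those counts therefore cannot be set against the shares of all genes called. The 2 libraries served as the replicates of each type, so the p-values measure the spread between these libraries only.

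Of the 34 members, 27 had at least 100 UMIs and were tested. The other 7 were hardly seen: Cdh16, a kidney cadherin, had 27 UMIs in the 16 sums, Cdh17 (liver and intestine) had 16, Cdh5 (VE-cadherin of endothelium) had 14, Cdh3 (P-cadherin) had 11, Cdh26 had 9, Cdh1 (E-cadherin of epithelia) had 8 and Pcdh12 (also endothelial) had 2. Among the 27, 11 members (40.7%) were called in at least 1 of the 8 types against the mean of the other 7, where 20.1% of all tested genes were. Among genes with at least 1000 UMIs, 6 of 20 members (30.0%) and 13.9% of all genes were called. For these better counted genes the highest type exceeded the lowest by a median of 2.32-fold in the 20 members and 1.63-fold in all 9000 genes, while the median difference between libraries was 0.26 and 0.22 on the log2 scale.

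**Figure D1:**
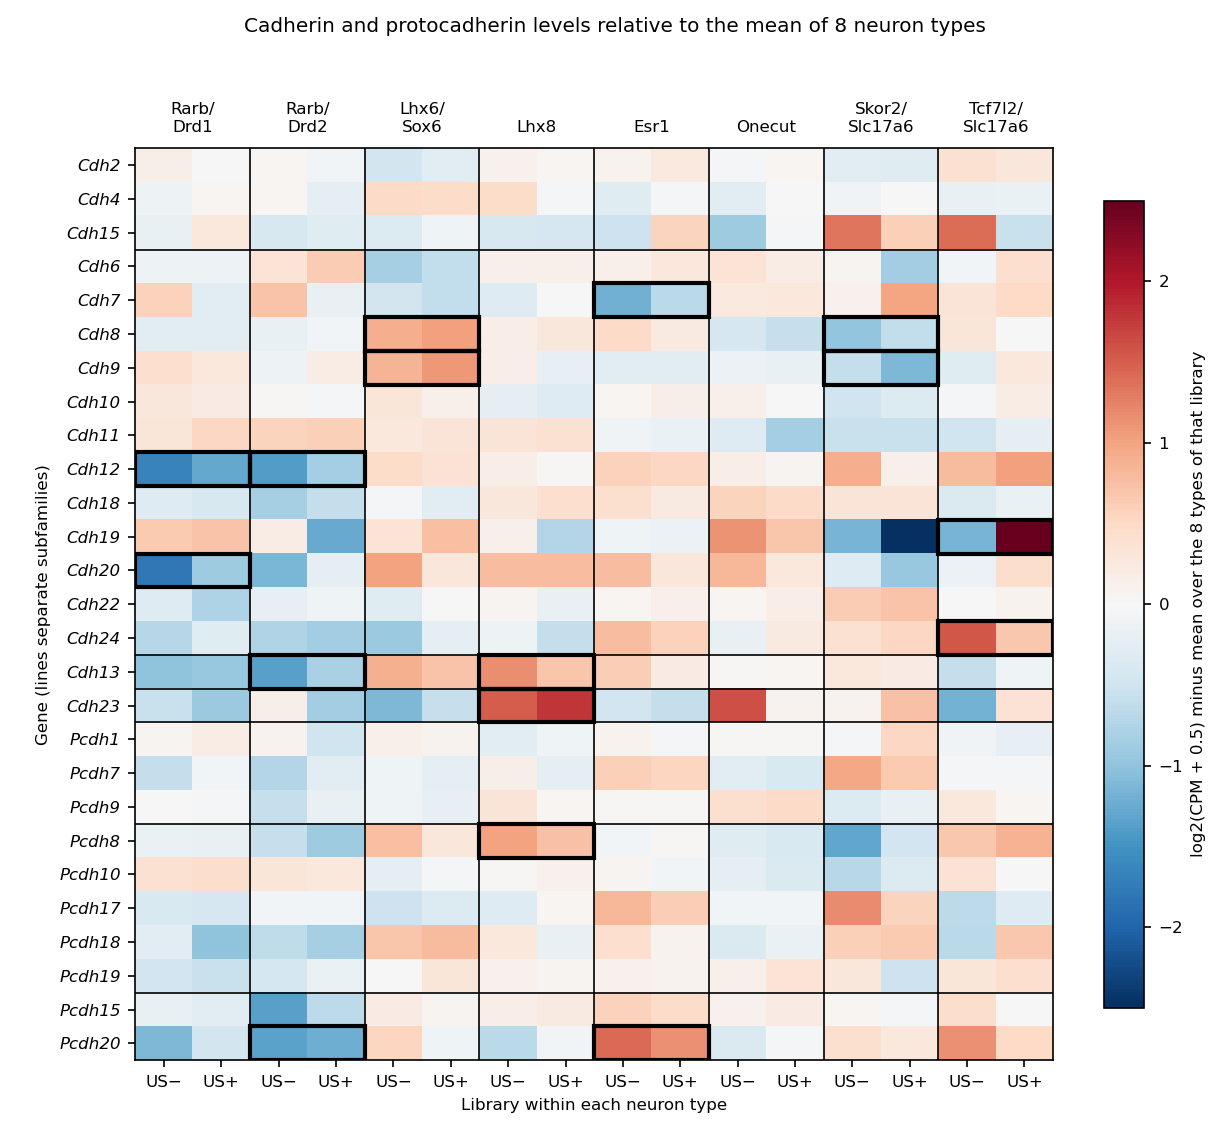
Level of each of the 27 tested members in each neuron type and library, as log2(CPM + 0.5) minus the mean of the 8 types of the same library (colour, cut at 2.5 on either side), grouped by subfamily from type I cadherins at the top to other protocadherins at the bottom. Black boxes mark the members called higher or lower in a type against the mean of the other 7. Cdh12 and Cdh20 were low in striatal types, and Cdh8 and Cdh9 high in the Lhx6/Sox6 type. The Cdh19 box is high in the US+ column and low in the US− column.

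The 4 promoters below are those of pairs of type II cadherins called in the same direction in the types named here, though not alike in every type. Cdh8 and Cdh9 were both higher in the Lhx6/Sox6 type and both lower in the Skor2/Slc17a6 type, and Cdh12 and Cdh20 were both lower in the Rarb/Drd1 type. They are RefSeq windows of 300 bases on build GRCm38.p6, from 250 bases before to 50 after the annotated start, written 5′ to 3′ on the strand of the gene. Capitals mark CpG dinucleotides. The windows are chr8:99416422-99416721 (minus strand) for Cdh8, chr15:16728665-16728964 (plus) for Cdh9, chr15:21111202-21111501 (plus) for Cdh12, whose RefSeq start lies inside the longer GENCODE gene, and chr1:104768270-104768569 (plus) for Cdh20.
Cdh8: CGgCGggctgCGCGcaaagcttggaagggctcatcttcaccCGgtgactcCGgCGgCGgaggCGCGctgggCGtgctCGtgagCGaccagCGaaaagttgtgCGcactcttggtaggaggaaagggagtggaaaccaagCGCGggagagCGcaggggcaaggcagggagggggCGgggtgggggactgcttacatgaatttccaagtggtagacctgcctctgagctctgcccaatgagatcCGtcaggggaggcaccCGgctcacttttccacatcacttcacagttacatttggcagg
Cdh9: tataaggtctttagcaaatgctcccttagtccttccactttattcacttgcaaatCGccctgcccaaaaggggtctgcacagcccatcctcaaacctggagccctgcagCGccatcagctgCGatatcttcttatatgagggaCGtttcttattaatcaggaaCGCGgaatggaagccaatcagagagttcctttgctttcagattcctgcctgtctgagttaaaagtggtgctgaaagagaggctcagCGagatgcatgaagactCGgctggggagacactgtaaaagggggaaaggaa
Cdh12: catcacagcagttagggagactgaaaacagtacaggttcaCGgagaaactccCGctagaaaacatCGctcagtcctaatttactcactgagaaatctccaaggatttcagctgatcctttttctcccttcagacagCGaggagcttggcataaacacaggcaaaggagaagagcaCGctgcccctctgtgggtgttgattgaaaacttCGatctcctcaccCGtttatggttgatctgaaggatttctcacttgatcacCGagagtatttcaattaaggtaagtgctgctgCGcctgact
Cdh20: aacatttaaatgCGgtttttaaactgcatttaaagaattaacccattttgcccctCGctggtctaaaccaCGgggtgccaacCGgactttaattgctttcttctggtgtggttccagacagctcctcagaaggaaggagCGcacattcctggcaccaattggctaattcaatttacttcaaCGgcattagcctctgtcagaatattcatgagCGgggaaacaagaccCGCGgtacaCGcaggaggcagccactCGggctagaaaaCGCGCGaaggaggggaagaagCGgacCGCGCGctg

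The window of Cdh8 held 21 CpG dinucleotides and that of Cdh20 held 18, against 8 for Cdh9 and 9 for Cdh12, with a median of 7 over all 32851 promoter windows. Thus the members of each pair differed in CpG content, and 24.8% of all windows held at least as many as Cdh8. The letters TAATTA (homeodomain core), ACAAAG (SOX), ATCAAAG (TCF/LEF, which overlaps the SOX letters), AGGTCA (nuclear receptor half-site) and TATAAA (a core promoter element) were searched on both strands, and none of them occurred in these 4 windows. They occurred in 5.29%, 18.7%, 3.73%, 16.3% and 13.6% of all windows. RefSeq windows were at hand for 22 of the 34 members, 25 windows in all, of which 1, 5, 0, 1 and 2 held these letters in the same order.

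Cdh12, a brain type II cadherin, was low in both striatal types. The gene spans chr15:20449265-21589533 on the plus strand and shares its strand with the RNA gene Gm49685, whose reads cannot be told apart in places. In the Rarb/Drd1 type it stood at 88.3 (US−) and 122 CPM (US+), and in the Rarb/Drd2 type at 108 and 165 CPM, whereas the other 6 types lay between 302 and 606 CPM. Every striatal value was therefore below every value of the other types. Against the mean of the other 7 types the log2 difference was −1.51 ± 0.16 (SE, adjusted p = 2.26e-06) in the Rarb/Drd1 type and −1.09 ± 0.16 (adjusted p = 7.21e-05) in the Rarb/Drd2 type. When each nucleus was thinned to 2000 UMIs, 9.27% of Rarb/Drd1 nuclei of US− and 12.3% of US+ held a Cdh12 UMI, against 45.2% and 45.7% of Esr1 nuclei. Without thinning, 274 of 1068 and 98 of 317 Rarb/Drd1 nuclei and 405 of 562 and 640 of 857 Esr1 nuclei held one.

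Cdh20, a type II cadherin of chr1:104768529-104995481, was also low in the striatal types. The Rarb/Drd1 type had 12.9 (US−) and 30.8 CPM (US+), and the Rarb/Drd2 type 20.5 and 48.8 CPM. The Lhx6/Sox6, Lhx8, Esr1 and Onecut types lay between 68.8 and 97.8 CPM, above all striatal values, while the Skor2/Slc17a6 type, at 36.5 and 29.2 CPM, and the Tcf7l2/Slc17a6 type of US−, at 41.4 CPM, overlapped with them. Cdh20 was called lower in the Rarb/Drd1 type (log2 difference −1.42 ± 0.30, adjusted p = 0.00141). These were the 2 members called lower in that type (7.41% of 27, where 4.64% of all genes were called lower), and no member was called higher (6.13% of all genes were). By the unadjusted p, 5 members were higher in the Rarb/Drd1 type, none of them by 2-fold, and DESeq2 also called 0.

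Cdh13, on chr8:118283733-119324921, encodes T-cadherin, a receptor without a cytoplasmic domain that also binds the fat cell hormone adiponectin. It was low in the striatal types, with 148 and 186 CPM (US− and US+) in Rarb/Drd1 nuclei and 116 and 205 CPM in Rarb/Drd2 nuclei. It was highest on average in Lhx8 nuclei, at 669 and 576 CPM, next to Lhx6/Sox6 nuclei at 553 and 586 CPM, and these 2 types overlapped. The calls were −1.03 ± 0.16 in the Rarb/Drd2 type (adjusted p = 0.000128) and 1.08 ± 0.13 in the Lhx8 type (adjusted p = 3.47e-05). In the Tcf7l2/Slc17a6 type the US− value of 196 CPM lay within the striatal range and the US+ value of 333 CPM did not.

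Pcdh20, a protocadherin on chr14:88464743-88471396, was sparse, with 304 UMIs in all 16 sums. In Rarb/Drd2 nuclei 8 UMIs gave 1.03 CPM in US− and 4 UMIs gave 1.43 CPM in US+. In Esr1 nuclei it reached 9.83 and 9.30 CPM, from 54 and 83 UMIs in 46 and 73 nuclei, above every value of the other types. It was called lower in the Rarb/Drd2 type (log2 difference −1.59 ± 0.42, adjusted p = 0.00907, a call kept in 7 of 10 other ways of processing) and higher in the Esr1 type (1.52 ± 0.24, adjusted p = 0.000520). Pcdh20, Cdh12 and Cdh13 were thus the 3 members called lower in the Rarb/Drd2 type (11.1%, where 3.2% of all genes were), and 0 were called higher by edgeR or DESeq2 (5.53% of all genes were), with 6 higher at an unadjusted p under 0.05.

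With both striatal types set against the other 6, 4 members were called lower and 0 higher, where 5.68% of all genes were called lower and 7.27% higher. The 4 were Cdh12 (−1.52 ± 0.12, adjusted p = 3.47e-08), Pcdh20 (−1.50 ± 0.32, adjusted p = 0.00104), Cdh20 (−1.18 ± 0.23, adjusted p = 0.000582) and Cdh13 (−1.15 ± 0.12, adjusted p = 8.05e-07). Under the smaller requirement of an adjusted p alone, 17 members differed (63.0%, where 43.1% of all genes did), 10 lower and 7 higher. The higher ones included Cdh11 (0.89), Pcdh10 (0.70) and Cdh7 (0.58) on the log2 scale, 3 genes of the type II and delta-2 groups. For Cdh7 this rested on US−, where both striatal values lay above those of all other types. In US+ they lay below those of the Lhx8, Onecut, Skor2/Slc17a6 and Tcf7l2/Slc17a6 types. DESeq2 called the same numbers, 0 higher and 4 lower, and 7 members were higher at an unadjusted p under 0.05.

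The 2 striatal types did not differ from each other by a call. Between Rarb/Drd1 and Rarb/Drd2 nuclei 0 of 27 members were called higher and 0 lower by edgeR or DESeq2, where 0.503% and 0.39% of all genes were called. At an unadjusted p under 0.05, 5 members were higher in Rarb/Drd1 nuclei and 3 lower. The member with an adjusted p under 0.05 was Pcdh15, the protocadherin of the inner ear tip link (chr10:73099342-74649737, sharing its strand with Gm15397), which stood at 972 and 1023 CPM in Rarb/Drd1 nuclei and at 428 and 794 CPM in Rarb/Drd2 nuclei. Its log2 difference was 0.73 ± 0.18 (adjusted p = 0.0462), and it rested more on US− (1.18 in that library alone, on log2 of CPM + 0.5) than on US+ (0.37).

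**Figure D2:**
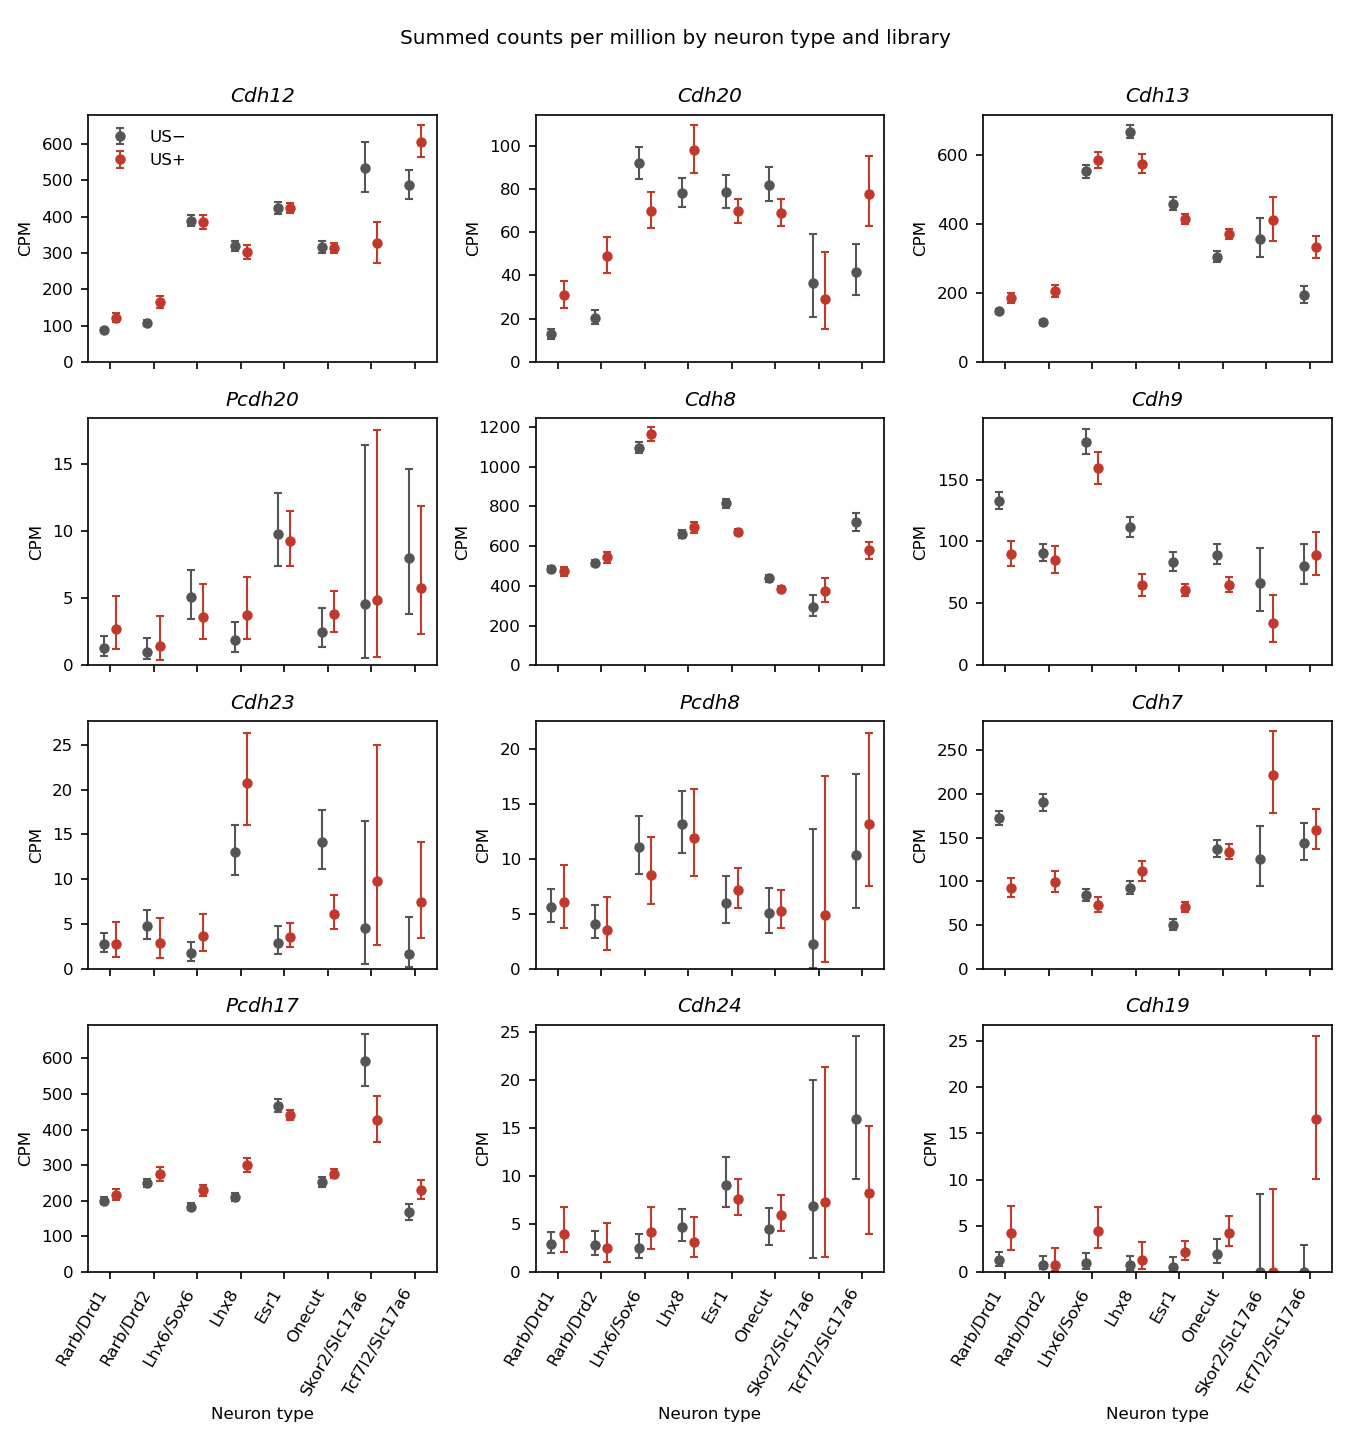
Summed CPM (vertical axes, linear from 0) of the 12 members with a call between types, by neuron type, in US− (grey) and US+ (red). Bars are exact Poisson 95% intervals, which cover counting error only. Cdh12 lay at 88.3 to 165 CPM in the striatal types and at 302 CPM or more elsewhere, Cdh8 exceeded 1000 CPM in the Lhx6/Sox6 type alone, and the Cdh19 peak was in 1 library.

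Cdh8 and Cdh9, both type II cadherins, marked the Lhx6/Sox6 type, whose other genes (Satb1, Nkx2-1, Sst, Npas1) are those of GABAergic neurons born in the ventral forebrain. Cdh8 (chr8:99024471-99416471, minus strand, sharing it with Gm15680) stood at 1097 (US−) and 1163 CPM (US+) in this type, and the other 7 types lay between 296 and 815 CPM. The groups did not overlap, and the log2 difference was 1.13 ± 0.09 (adjusted p = 1.40e-07). At 2000 UMIs per nucleus, 69.3% and 71.9% of Lhx6/Sox6 nuclei held a Cdh8 UMI (540 of 605 and 328 of 381 nuclei without thinning). Cdh9 (chr15:16728756-16857094) stood at 180 and 159 CPM, against 34.1 to 133 CPM elsewhere, with a log2 difference of 1.13 ± 0.11 (adjusted p = 1.53e-06). They were the 2 members called higher (7.41%, where 3.18% of all genes were). None was called lower by edgeR or DESeq2 (2.17% of all genes), with 6 lower at an unadjusted p under 0.05. With no fold minimum, 13 of 27 members differed in this type (48.1%, where 16.6% of all genes did), among them Cdh13 (0.94), Pcdh18 (0.92), Cdh20 (0.83) and Cdh4 (0.55, R-cadherin) upwards and Cdh6 (−0.83) downwards.

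The Skor2/Slc17a6 type was the reverse for both genes. Cdh8 stood at 296 and 375 CPM there and Cdh9 at 66.1 and 34.1 CPM. The values of Cdh8 were the lowest of the 8 types in each library, although Onecut nuclei of US+ were close at 383 CPM. Those of Cdh9 came from 29 UMIs in 18 nuclei (US−) and 14 UMIs in 10 nuclei (US+). They too were the lowest of their library, but the US− value lay above those of Esr1 and Onecut nuclei of US+. The log2 differences were −1.05 ± 0.13 for Cdh8 (adjusted p = 0.000102) and −1.07 ± 0.24 for Cdh9 (adjusted p = 0.0171), and these were the 2 members called lower (7.41%, where 1.19% of all genes were). None was called higher by edgeR or DESeq2 (0.642% of all genes), with 5 higher at an unadjusted p under 0.05. The type held 45 and 39 nuclei, and the call of Cdh9 there was lost under 7 of 11 other ways of processing, for example with the deepest nuclei left out (−0.89, adjusted p = 0.0908).

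The 2 glutamatergic types differed from each other in Pcdh17 and Cdh8. Pcdh17, a delta-2 protocadherin of axons and synapses on chr14:84443563-84539002, stood at 592 and 426 CPM in Skor2/Slc17a6 nuclei and at 167 and 231 CPM in Tcf7l2/Slc17a6 nuclei. It was called higher in the former (1.28 ± 0.18, adjusted p = 0.000416, where 0.51% of all genes were), and the groups did not overlap. Cdh8 was called lower (−1.05 ± 0.15, adjusted p = 0.000642, where 1.18% of all genes were), with 721 and 579 CPM in Tcf7l2/Slc17a6 nuclei. Both glutamatergic types against the other 6 had 0 members called in either direction by edgeR or DESeq2 (0.579% and 1.25% of all genes were called higher and lower), with 5 higher and 7 lower at an unadjusted p under 0.05.

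In Lhx8 nuclei the cholinergic markers Chat and Slc5a7 passed the check along with Zic1, Isl1 and Gbx1, and Gad1 did not. The gate used Lhx8 alone, so the calls hold for Lhx8 nuclei as gated, cholinergic or not. No member was called lower by edgeR or DESeq2 (1.62% of all genes, 1 member lower at an unadjusted p under 0.05). The 3 members called higher (11.1%, where 2.51% of all genes were) were Cdh13, Cdh23 and Pcdh8. The call of Cdh13 was kept in 8 and that of Pcdh8 in 7 of 11 other ways of processing, with log2 differences of at least 0.86 and 0.85. Cdh23, the other protein of the tip link (chr10:60302748-60696490, minus strand), stood at 13.01 and 20.7 CPM in Lhx8 nuclei. Those values came from 89 UMIs in 40 of 565 US− nuclei and 66 UMIs in 27 of 286 US+ nuclei, with up to 10 UMIs in a single nucleus. Its log2 difference was 1.90 ± 0.31 (adjusted p = 0.000465). Onecut nuclei of US− reached 14.1 CPM, so that the types overlapped, while Onecut nuclei of US+ had 6.06 CPM. Pcdh8, a delta-2 protocadherin whose synthesis rises with neuronal activity (chr14:79766775-79771312, minus strand), stood at 13.2 and 11.9 CPM in Lhx8 nuclei (1.05 ± 0.18, adjusted p = 0.000838) and overlapped with the Tcf7l2/Slc17a6 type at 10.4 and 13.2 CPM.

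The Lhx6/Sox6 and Lhx8 types differed by 1 call. Cdh23 was lower in Lhx6/Sox6 nuclei, at 1.69 and 3.63 CPM (log2 difference −2.68 ± 0.47, adjusted p = 0.00277), where 0.988% of all genes were called lower. No member was called higher there by edgeR or DESeq2 (0.799% of all genes), with 3 higher at an unadjusted p under 0.05. Cdh9 (0.98) and Cdh8 (0.76) were higher in Lhx6/Sox6 nuclei at an adjusted p under 0.05 but by less than 2-fold.

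In Esr1 nuclei, the oestrogen-sensitive neurons in which Pgr, Greb1 and Calcr were also high, Pcdh20 was the 1 member called higher (3.70%, where 1.91% of all genes were) and Cdh7 the 1 called lower (where 0.711% were). Cdh7, a type II cadherin on chr1:109982431-110140157, stood at 50.2 (US−) and 70.3 CPM (US+). Each was the lowest value of its library, although Lhx6/Sox6 nuclei of US+ were close at 73.2 CPM. The log2 difference was −1.17 ± 0.22 (adjusted p = 0.00237). Pcdh17 (0.71), Pcdh7 (0.52), Cdh12 (0.51) and Pcdh15 (0.47) were also higher in this type at an adjusted p under 0.05 but did not reach 2-fold.

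In Onecut nuclei 0 members were called higher or lower by edgeR or DESeq2 (1.84% and 0.629% of all genes were). At an unadjusted p under 0.05, 4 were higher and 7 lower. Cdh11 (OB-cadherin), at 126 and 81.5 CPM, was the lowest of the 6 that differed at an adjusted p under 0.05 (−0.79 on the log2 scale). Cdh18, at 1505 and 1532 CPM, was among the higher ones (0.46).

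In Tcf7l2/Slc17a6 nuclei 2 members were called higher (7.41%, where 1.91% of all genes were), both on few counts. None was called lower by edgeR or DESeq2 (0.503% of all genes, 4 members lower at an unadjusted p under 0.05). Cdh24, a type II cadherin on chr14:54631231-54641364, stood at 15.9 (US−) and 8.26 CPM (US+), from 20 UMIs in 16 nuclei and 10 UMIs in 9 nuclei (log2 difference 1.41 ± 0.35, adjusted p = 0.0219). The US+ value lay below that of Esr1 nuclei of US−, so that the types overlapped. From each library alone the Cdh24 difference was 1.77 (US−) and 0.78 (US+). Cdh19, a type II cadherin best known from Schwann cells and other glia (chr1:110888326-110977584), had 0 UMIs in the 124 US− nuclei and 20 UMIs in 10 of the 123 US+ nuclei, which is 16.5 CPM. Its log2 difference of 2.88 ± 0.74 (adjusted p = 0.0318) was thus made by the US+ library, and in US− alone the difference was −1.33. In the same US+ nuclei the summed level of 6 astrocyte markers was 275 CPM against 59.8 CPM in US−, and that of 6 oligodendrocyte markers was 140 against 43.8 CPM, with none of the 12 at 0 in both libraries. When nuclei with at least 5 UMIs of glial markers were left out, 105 nuclei and 5 Cdh19 UMIs remained in US+.

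The type I cadherins were called in no comparison. Cdh2, which encodes N-cadherin, ranged from 210 to 377 CPM over the 16 sums, and its log2 differences from the mean of the other types ran from −0.49 to 0.35. Cdh4 ranged from 185 to 337 CPM. Neither passed in any of the 13 comparisons. Cdh15, the muscle cadherin, held 101 UMIs in all and was not called either.

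With an adjusted p under 0.05 and no fold minimum, 11 of the 27 members differed in the Rarb/Drd1 type (32.2% of all genes did), 9 in the Rarb/Drd2 type (26.9%), 7 in the Lhx8 type (13.4%) and 7 in the Esr1 type (11%). In the Onecut type 6 members differed (8.12%), in the Skor2/Slc17a6 type 9 (3.84%) and in the Tcf7l2/Slc17a6 type 6 (5.19%). Between types, 1 member differed between Rarb/Drd1 and Rarb/Drd2 nuclei (1.67%), 7 between Lhx6/Sox6 and Lhx8 nuclei (3.45%), 7 between Skor2/Slc17a6 and Tcf7l2/Slc17a6 nuclei (2.78%) and 6 between the glutamatergic types and the other 6 (6.12%). The share of members was thus above that of all genes in each of these comparisons, with no test of the difference. The shares were not matched for UMIs. At least 1000 UMIs were held by 20 of the 27 members and by 9000 of the 15895 genes. The part of this in the shares was not tested.

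The delta-1 protocadherins were present in every type. Pcdh9 (chr14:93013410-93890679) had between 1682 and 3460 CPM, and at 2000 UMIs 79.1% to 91.1% of nuclei held a UMI in each type and library. Pcdh7 ranged from 616 to 2005 CPM, with Skor2/Slc17a6 (2005 and 1826 CPM) and Esr1 nuclei (1538 and 1683 CPM) above all others in both libraries, but its differences stayed under 2-fold (0.78 and 0.52 on the log2 scale). Pcdh1 ranged from 10.7 to 21.9 CPM. None of the 3 was called in the 13 comparisons. Among the delta-2 protocadherins Pcdh19, an X-linked gene of epilepsy, ranged from 40.5 to 82.9 CPM and Pcdh10 from 95.7 to 204 CPM, and neither was called.

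Genes that lie next to each other were alike in some types and not in others. The 5 type II genes Cdh6, Cdh9, Cdh10, Cdh12 and Cdh18 lie in this order on chromosome 15, between 13028701 and 23474418. Cdh9 was highest in Lhx6/Sox6 nuclei, where Cdh6 was lowest in US− (14.4 CPM, and 17.4 CPM in US+ with Skor2/Slc17a6 nuclei lower at 14.6 CPM). Cdh12 was lowest in Rarb/Drd1 nuclei, where Cdh10 was at 281 and 226 CPM, the second highest and the highest value of its library. Cdh18 ran highest in Onecut nuclei and lowest in Rarb/Drd2 nuclei (575 and 726 CPM). By the mean of both libraries Cdh9 and Cdh10 shared their 2 highest types (Lhx6/Sox6 and Rarb/Drd1) and their lowest (Skor2/Slc17a6), and Cdh12 and Cdh18 shared the 2 striatal types as their lowest. On chromosome 1, Cdh20 and Cdh7 lie near each other too. In US− Cdh20 was at its lowest in the 2 striatal types, in which Cdh7 (173 and 190 CPM) was at its highest. In US+ this was not so, since Cdh7 stood at 92.3 and 99.1 CPM there against 222 CPM in Skor2/Slc17a6 nuclei, in which Cdh20 was lowest (29.2 CPM).

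**Figure D3:**
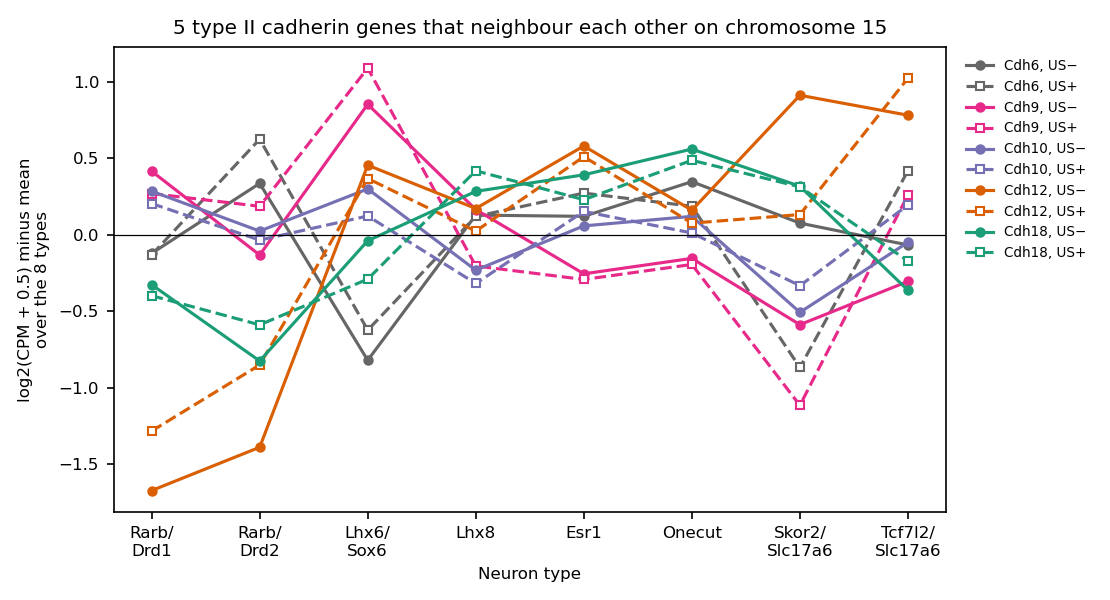
Relative level (log2(CPM + 0.5) minus the mean of the 8 types, vertical axis) of the 5 type II cadherin genes of chromosome 15 by neuron type, with US− as filled circles and full lines and US+ as open squares and dashed lines. The lines cross: Cdh12 is lowest in the Rarb/Drd1 type and Cdh9 highest in the Lhx6/Sox6 type, where Cdh6 is low.

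The combination of members in a type was compared between the libraries. Over the 20 members with at least 1000 UMIs, the profile of each US− type (log2(CPM + 1), minus the mean of the types) was compared with that of each US+ type. The highest correlation was with the same type in 8 of 8 cases, from r = 0.65 for Tcf7l2/Slc17a6 to r = 0.91 for Esr1. The cut at 1000 UMIs was added after seeing the data. Over all 27 tested members the same type was closest in 6 of 8 cases. Rarb/Drd2 was then closest to Rarb/Drd1 (r = 0.60, and 0.59 with its own type). Tcf7l2/Slc17a6 was closest to Esr1 (r = 0.50), while its correlation with its own type was near 0 (r = −0.0009). These correlations are descriptions across genes, which are not replicates, and the types of a library share its depth and its free RNA.

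Single nuclei held several members at once. After thinning to 2000 UMIs, a nucleus had a UMI of 5.66 to 7.27 of the 34 members on average. The mean was lowest in the striatal types in both libraries, with 5.87 ± 1.90 (SD over nuclei) and 5.90 ± 1.92 in Rarb/Drd1 and 5.66 ± 1.92 and 6.02 ± 1.93 in Rarb/Drd2 nuclei, and highest in US− in Esr1 nuclei at 7.27 ± 1.93. The SD over nuclei was larger than these differences between types. Without thinning the means ran from 10.7 to 12.5.

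**Figure D4:**
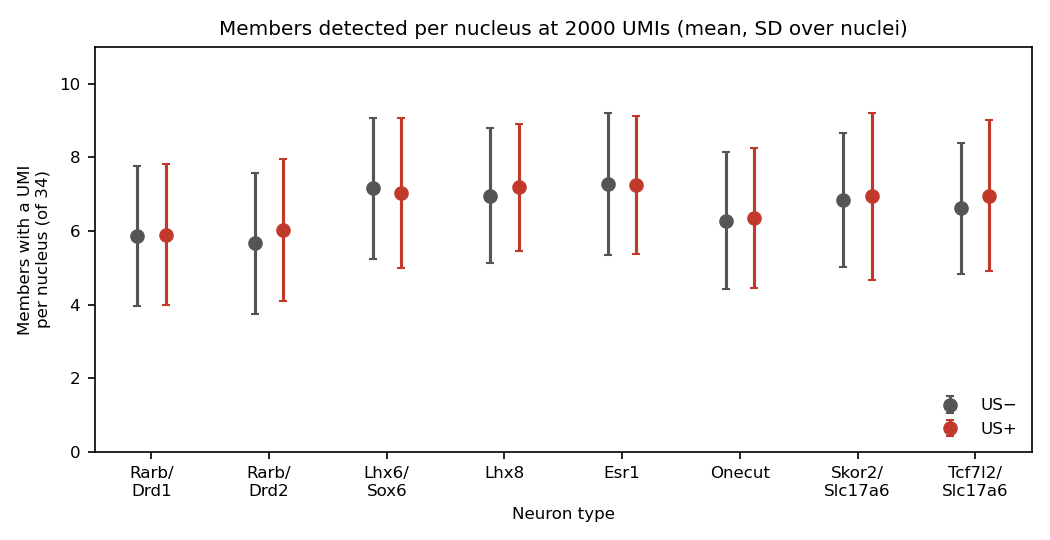
Number of the 34 members with at least 1 UMI in a nucleus thinned to 2000 UMIs (vertical axis from 0), as the mean with the SD over nuclei as bars, by neuron type in US− (grey) and US+ (red). The means lie between 5.66 and 7.27, lowest in the Rarb/Drd1 and Rarb/Drd2 types.

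Cadherins act with catenins and with the nectin adhesion system, and 13 of the 14 genes listed as their partners were tested. Vcl, which encodes vinculin, the link from catenins to actin, was called higher in Rarb/Drd1 nuclei (1.88 ± 0.24, adjusted p = 1.21e-05), at 116 (US−) and 357 CPM (US+), and in Rarb/Drd2 nuclei (79.6 and 227 CPM). The US− value of Rarb/Drd2 nuclei lay close to that of Lhx6/Sox6 nuclei at 78.8 CPM. Nectin1 was called lower in Rarb/Drd1 nuclei (−1.60 ± 0.22, adjusted p = 2.28e-05), at 3.81 and 7.92 CPM against 7.31 to 26.7 CPM elsewhere. Nectin3 was higher in Esr1 nuclei (1.14, at 58.0 and 53.4 CPM) and Jup, plakoglobin, was lower in Lhx8 nuclei (−1.15, at 1.90 and 1.88 CPM). No other partner was called in a type against the mean of the other 7, so that the alpha-, beta- and delta-catenin genes were called in none of the 8 types, and in the pairs of types no partner was called. Nectin4 had 55 UMIs and was not tested.

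Of 19 further genes of the superfamily 15 were tested. Dchs2, a giant cadherin of the planar polarity system, ran parallel to the striatal gates, with 210 and 164 CPM in Rarb/Drd1 and 159 and 153 CPM in Rarb/Drd2 nuclei against 24.8 to 96.6 CPM elsewhere (1.73 ± 0.06 for both against the other 6, adjusted p = 1.20e-12). It was lowest in Tcf7l2/Slc17a6 nuclei, at 25.5 and 24.8 CPM (−1.91 ± 0.14, adjusted p = 1.41e-07). Fat1, of the same group of giant cadherins, was higher in both striatal types as well (1.09 and 1.38). Fat4 was called lower in Skor2/Slc17a6 than in Tcf7l2/Slc17a6 nuclei (adjusted p = 0.0255), with 1 UMI in US− and 0 in US+ in the former and 18 and 23 UMIs in the latter, counts too few for a fold. In the 8 comparisons of a type with the other 7, the superfamily list had at most 3 genes called higher and 1 lower. The 3 of 15 called higher were in Rarb/Drd2 nuclei, where 5.53% of all genes were called higher. In Rarb/Drd2, Skor2/Slc17a6 and Tcf7l2/Slc17a6 nuclei 1 of 15 was called lower, where 3.2%, 1.19% and 0.503% of all genes were. Ret, the receptor of the GDNF family with cadherin repeats, was called higher in Lhx8 (1.25) and Onecut nuclei (1.50), and the desmosomal gene Dsg2 in Lhx6/Sox6 (1.02) and Rarb/Drd2 nuclei (1.39). The latter call of Dsg2 rested on US−, with 13.9 CPM against 4.28 CPM in US+ (1.50 and 0.11 on the log2 scale from each library alone). The genes under 100 UMIs were Celsr1, Fat2, Dsc1 and Dsc3.

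US+ and US− were compared as 2 libraries, without a test, by the ratio of CPM with an exact 95% interval that covers counting error only. Over all nuclei, 29 members had at least 50 UMIs, their ratios had a median of 1.10, and 17 were above 1 and 12 below. The median of all 20109 genes was 1.04. Past 1.5-fold were 2 members upwards (6.90%, where 7.66% of all genes were) and 0 downwards (where 3.35% were). They were Cdh16, with 29 and 40 UMIs (ratio 1.61, interval 0.972 to 2.69), and Cdh19, with 164 UMIs in US− and 491 in US+, or 1.66 and 5.79 CPM (ratio 3.49, interval 2.92 to 4.19). Over all nuclei the 6 oligodendrocyte markers summed to 66.7 (US−) and 121 CPM (US+) and the 6 astrocyte markers to 51.7 and 86.3 CPM, and 3.33% of US− and 6.98% of US+ nuclei had at least 5 UMIs of glial markers. Without those nuclei the Cdh19 ratio was 2.33.

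**Figure D5:**
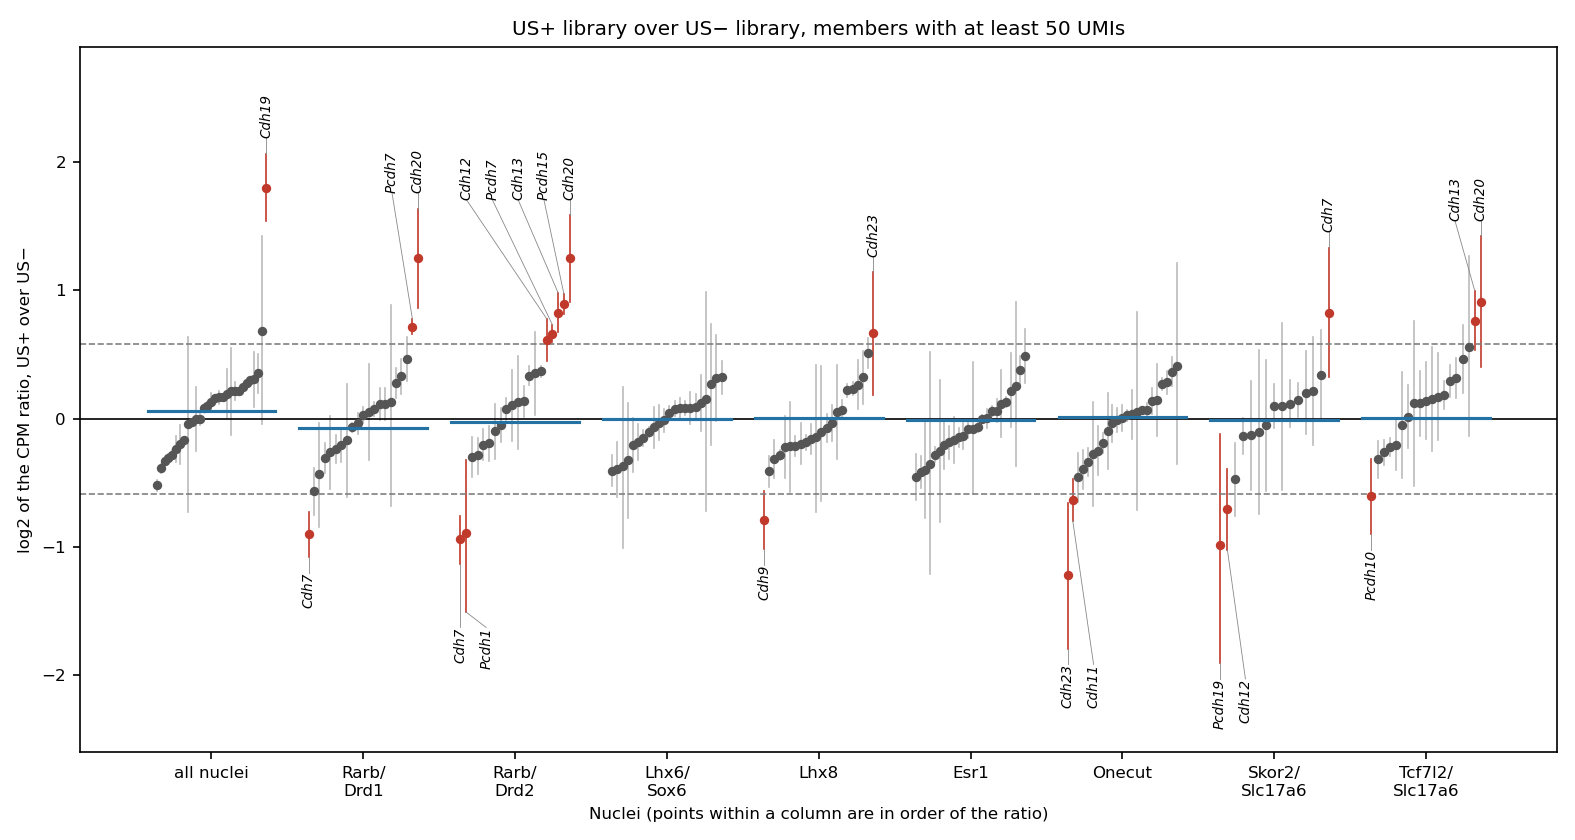
Ratio of CPM in US+ over US− (log2, vertical axis) for each member with at least 50 UMIs, over all nuclei and in each neuron type, with exact 95% counting intervals as bars. Red points with names lie past 1.5-fold (dashed lines) with an interval that leaves out 1, and blue lines are the median of all genes. The Rarb/Drd2 type has 7 named members, and the Lhx6/Sox6 and Esr1 types have none.

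Within the types, 20 ratios were past 1.5-fold, and each of these had an interval that left out 1. The number of members and the share of all genes past 1.5-fold are given with each type. The Lhx6/Sox6 type (22 members with at least 50 UMIs) and the Esr1 type (24 members) held none. In the former 2.78% of all genes were past upwards and 2.74% downwards, and in the latter 3.51% and 2.02%. The striatal types held 10 of the 20, and the share of all genes past 1.5-fold was also highest in these 2 types, in each direction. In Rarb/Drd2 nuclei 5 of 20 members were higher in US+ (25.0%, where 7.61% of all genes were) and 2 lower (10.0%, where 8.8% were). Cdh20 went from 20.5 to 48.8 CPM (ratio 2.38, interval 1.88 to 3.01), Pcdh15 from 428 to 794 CPM (1.86, 1.76 to 1.96), Cdh13 from 116 to 205 CPM (1.77, 1.60 to 1.97), Pcdh7 from 616 to 976 CPM (1.58) and Cdh12 from 108 to 165 CPM (1.53). Cdh7 went from 190 to 99.1 CPM (0.520, interval 0.456 to 0.592) and Pcdh1 from 19.9 to 10.7 CPM (0.538).

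In Rarb/Drd1 nuclei 2 of 21 members were past 1.5-fold upwards (9.52%, where 5.98% of all genes were) and 1 downwards (where 10.3% were). These were Cdh20 (12.9 to 30.8 CPM, ratio 2.38), Pcdh7 (674 to 1110 CPM, ratio 1.65) and Cdh7 (173 to 92.3 CPM, ratio 0.535). Thus Cdh7 was the lower one and Cdh20 and Pcdh7 the higher ones in both striatal types.

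Gate genes and markers also differed between the libraries within the striatal types. In Rarb/Drd2 nuclei the gate genes Rarb and Drd2 stood at 1372 and 326 CPM in US− and at 994 and 196 CPM in US+, Adora2a at 106 and 57.4 CPM and Rgs9 at 417 and 253 CPM, while Slc17a6 stood at 5.26 and 15.3 CPM. In Rarb/Drd1 nuclei Rarb stood at 1455 and 1128 CPM, Rgs9 at 343 and 285 CPM and Tac1 at 89.5 and 87.1 CPM, while Slc17a6 stood at 3.91 and 14.6 CPM. The part of these differences in the ratios of the cadherins was not tested. Stricter gates asked for at least 2 UMIs of Rarb and of the receptor of the type. With them, 9 of the 10 striatal ratios stayed past 1.5-fold, among them Cdh7 (0.538 and 0.521 in the 2 types), Pcdh7 (1.82 and 1.64) and Cdh12 (1.84). The exception was Cdh20 in Rarb/Drd1 nuclei, at 1.42 with an interval of 0.863 to 2.27.

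In the other types the ratios past 1.5-fold were fewer. In Lhx8 nuclei Cdh23 had a ratio of 1.59 (1 of 22 members, where 2.89% of all genes were past upwards) and Cdh9 one of 0.578, from 112 to 64.6 CPM (where 2.85% were past downwards). In Onecut nuclei 2 of 23 members were lower (8.70%, where 2.18% of all genes were), Cdh23 (14.1 to 6.06 CPM, ratio 0.429) and Cdh11 (126 to 81.5 CPM, ratio 0.645), and 0 higher (where 2.97% were). In Tcf7l2/Slc17a6 nuclei Cdh20 (41.4 to 77.7 CPM, ratio 1.87) and Cdh13 (196 to 333 CPM, ratio 1.70) were higher (2 of 19 members, where 5.05% of all genes were), and Pcdh10 was lower (200 to 131 CPM, ratio 0.657, where 4.42% were). The astrocyte markers stood at 59.8 CPM (US−) and 275 CPM (US+) in these nuclei. Without the nuclei with glial markers Cdh20 had a ratio of 1.43 (interval 0.931 to 2.20) and Cdh13 one of 1.64. In Skor2/Slc17a6 nuclei, the smallest type, Cdh7 was higher (125 to 222 CPM, ratio 1.77, 6.67% of 15 members, where 5.1% of all genes were), and Cdh12 (533 to 326 CPM, ratio 0.612) and Pcdh19 (82.0 to 41.4 CPM, ratio 0.505) were lower (13.3%, where 5.69% were). Of the 234 Cdh12 UMIs of US− in this type 66 came from 1 nucleus, without which the ratio was 0.789 (interval 0.624 to 0.996). Of the 91 Cdh7 UMIs of US+ 18 came from 1 nucleus, without which the ratio was 1.54 (1.07 to 2.22). Of all 20 ratios, 17 stayed past 1.5-fold with stricter gates and 18 without the nuclei with glial markers, where Cdh20 in Tcf7l2/Slc17a6 nuclei and Cdh12 in Rarb/Drd2 nuclei (1.46) did not. The nucleus with the most UMIs of the member was also left out in US−, in US+ and in both. Then 16 ratios stayed past 1.5-fold each time, and those that did not were Cdh12 in Skor2/Slc17a6 and Rarb/Drd2 nuclei (1.48 in the latter), Cdh23 in Lhx8 nuclei (1.36) and Pcdh10 in Tcf7l2/Slc17a6 nuclei (0.695). The side of 1 was kept in 20 of 20 under all of these. The 20 were picked as past 1.5-fold, and these settings reuse many of the same counts, so this is not independent support.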

How the data were processed

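Nuclei of the POA were pooled from 4 mice per group, sorted for NeuN and sequenced as 1 library each. The authors deposited raw UMI counts per gene and nucleus made with Cell Ranger 6.1.1 on the mouse genome mm10, scaled to the depth of the less saturated library. Whether intronic reads were counted is not given in the sources used here. Groups came from the treatment labels. Nuclei with 200 to 7500 genes, at most 5% mitochondrial UMIs and at least 2000 UMIs were kept, 11040 of 11725 barcodes for US− and 9912 of 12075 for US+, with 98904011 and 84857570 UMIs. The full marker count of the Esr1 type is not reported here. No doublet caller was run, and nuclei in more than 1 gate were dropped. The gates required 1 UMI of each gene, 2 for Lhx8 and for the Onecut genes together, and 3 for Esr1. The Rarb/Drd1 and Rarb/Drd2 gates required that the other receptor be at 0. The stricter gates required 2 UMIs of each gene and 3 for Lhx8 and for the Onecut genes together. They left Esr1 at 3 and the other receptor at 0.

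UMI counts were summed per type and library and fitted with edgeR 4.0.16 in R 4.3.3 (TMM scaling, quasi-likelihood F-test, terms for type and library, gate genes left out, common biological coefficient of variation 0.0918, 7 residual degrees of freedom). Benjamini-Hochberg adjustment was over all genes, one of 13 contrasts at a time. DESeq2 1.42.0 was an alternative. US+ over US− ratios were taken for genes with at least 50 UMIs, with exact conditional intervals and no test. Values from 1 library alone used log2(CPM + 0.5). Thinning drew 2000 UMIs per nucleus at random. Coordinates are those of GENCODE M21 (GRCm38, the build of mm10). The members, the lists and the types were chosen with earlier results of these data known. Values are given for up to 3 highest and 2 lowest called members of each type, up to 2 in each direction of each pair, and every member past 1.5-fold between libraries with an interval that leaves out 1. Other members are given by their ranges, and those shown for an adjusted p alone were picked after their values were seen. Alternatives were other scaling, filters, gates, depths and nuclei, and the one without glial-marker nuclei, the one without the nucleus with the most UMIs of a member, and the profiles over members with at least 1000 UMIs were added after seeing the data.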

Additional observations from a re-analysis of the deposited data

Results flagged for a closer look

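3 members had US+ over US− ratios past 1.5-fold in opposite directions in different types, and the difference between the types was not tested because each condition was 1 library. Cdh7 had a ratio of 1.77 in Skor2/Slc17a6 nuclei (1.54 without the 1 US+ nucleus with the most Cdh7 UMIs) and of 0.535 and 0.520 in Rarb/Drd1 and Rarb/Drd2 nuclei. Cdh12 had a ratio of 1.53 in Rarb/Drd2 nuclei and of 0.612 in Skor2/Slc17a6 nuclei. The latter was 0.789 and no longer past 1.5-fold without the 1 US− nucleus that held 66 of 234 UMIs. Cdh23 had a ratio of 1.59 in Lhx8 nuclei and of 0.429 in Onecut nuclei. The former was 1.36 without the US+ nucleus with the most UMIs, and the latter was 0.927 with stricter gates.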

How the results depend on the processing

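US+ and US− could not be paired because the labels give each group 1 library and no replicate numbers. The types were compared within libraries, since the library was a term of the reported fit. Of 23 called differences between types, 11 kept their call and direction under all of the 9 to 11 alternative fits that tested them, and 45 of 46 values from 1 library alone had the same sign. The exception was Cdh19 in Tcf7l2/Slc17a6 nuclei, from −1.33 to 2.91 when either library was left out. Each of the 46 values is part of the data that made its call, so a shared sign is not independent support. Both DESeq2 alternatives and the fit with no filter kept all 23.

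With no fold minimum the counts of members rose to 11 (Rarb/Drd1), 9 (Rarb/Drd2), 13 (Lhx6/Sox6), 7 (Lhx8), 7 (Esr1), 6 (Onecut), 9 (Skor2/Slc17a6) and 6 (Tcf7l2/Slc17a6), to 1, 7 and 7 in the 3 pairs, and to 17 and 6 for the striatal and glutamatergic types together. With the fold minimum kept, only the counts that changed by more than 1.5-fold, or to or from 0, are given. Other counts also changed, by up to 1.5-fold, and are not listed. Beside each count is the share of all tested genes called in that comparison, under the alternative and in the fit reported. With strict gates they were 5 (Lhx6/Sox6, 5.06% against 5.35%), 0 (Tcf7l2/Slc17a6, 1.98% against 2.42%) and 1 (glutamatergic types together, 1.48% against 1.83%). With loose gates they were 4 (Lhx6/Sox6, 4.91% against 5.35%), 1 (Onecut, 2.03% against 2.47%), 1 (Skor2/Slc17a6, 1.65% against 1.83%) and 3 (Lhx6/Sox6 against Lhx8, 1.46% against 1.79%). With nuclei of several gates kept they were 0 (Rarb/Drd2, 5.7% against 8.73%), 1 (Lhx8, 3.43% against 4.13%), 1 (Skor2/Slc17a6, 1.64% against 1.83%), 1 (Tcf7l2/Slc17a6, 2.22% against 2.42%) and 2 (striatal types together, 9.83% against 13%). Without the deepest 10% of nuclei they were 5 (Lhx6/Sox6, 5.47% against 5.35%), 1 (Onecut, 2.74% against 2.47%) and 2 (Lhx6/Sox6 against Lhx8, 1.76% against 1.79%). Thinned to 2000 UMIs they were 6 (Rarb/Drd2, 9.22% against 8.73%), 1 (Esr1, 2.29% against 2.62%), 1 (Onecut, 2.09% against 2.47%), 1 (Skor2/Slc17a6, 1.1% against 1.83%) and 0 (Tcf7l2/Slc17a6, 1.93% against 2.42%). Without a library term they were 1 (Skor2/Slc17a6, 1.49% against 1.83%) and 1 (Tcf7l2/Slc17a6, 2.15% against 2.42%), at 5000 UMIs per nucleus 1 (Skor2/Slc17a6, 1.89% against 1.83%) and without glial-marker nuclei 1 (Skor2/Slc17a6, 1.77% against 1.83%). The cause of these changes was not tested. Over all nuclei, 1 member was past 1.5-fold with at least 200 UMIs or with equal weight for each type. Members per nucleus, averaged over types and libraries, rose from 6.64 to 11.8 with no thinning and to 9.90 at 5000 UMIs.

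The limits are 1 library per group, 45 and 39 nuclei in the smallest type, where Cdh9 had few counts, and few counts for Cdh19, Cdh23, Cdh24, Pcdh8 and Pcdh20, for which intervals cover counting error only.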
